A study of Mus musculus with 24 samples.

Results

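Oligodendrocytes (ODC) were compared with oligodendrocyte precursor cells (OPC) of the same libraries in the adult male mouse ventral hippocampus. The cell types are those the authors named in their single-nucleus RNA sequencing (snRNA-seq) data, and the members of the comparison are the columns of summed counts that carry either name, 8 of the 68 columns in the table of counts. They hold 4372 of 30880 nuclei, 2861 ODC and 1511 OPC. The libraries came from 2 inbred strains, C57BL/6J (B6) and DBA/2J (D2, labelled DBA), with 2 libraries per strain, numbered 2 and 3, each of tissue from about 2 mice aged 10 to 16 weeks. No treatment, transgene or deletion was given for either strain, and each library contributed 1 ODC and 1 OPC column. Single-nucleus accessibility sequencing (snATAC-seq) of separate libraries of the same strains, also 2 per strain, gave a second measurement. Nuclei were pooled over animals within a library, so the spread between libraries is that of pools and not of single mice. The RNA nuclei had been sorted to be mostly NeuN-positive, that is neuronal, whereas the accessibility nuclei had not.

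As background, oligodendrocytes wrap the axons of the central nervous system in myelin, a stack of membrane rich in galactolipids and cholesterol and held together by a small set of abundant proteins. They arise from precursors that persist through adult life, divide slowly, carry the receptor for platelet-derived growth factor (Pdgfra) and the proteoglycan NG2 (Cspg4), and receive synaptic input through glutamate and GABA receptors. On the way to myelination a precursor leaves the cell cycle, passes through a short newly formed stage marked by genes such as Gpr17 and Enpp6, and switches on Myrf, a transcription factor that drives myelin genes.

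Per library there were 510 to 972 ODC and 362 to 392 OPC nuclei, and a column held 1389297 to 2581231 counts for ODC and 1224903 to 1598333 for OPC. This is 2305 to 2908 counts per ODC nucleus and 3302 to 4141 per OPC nucleus, so depth per nucleus moved with cell type, and its part in the results was not tested. Levels are CPM, counts scaled to a common column total after trimmed-mean scaling, and an ODC or OPC value below is always for 1 library, in the order B6 library 2, B6 library 3, D2 library 2 and D2 library 3. Across 11499 symbols at a mean of at least 5 CPM, Pearson's r of log2(CPM + 1) was 0.971 and 0.976 between B6 libraries of one cell type, 0.963 and 0.969 between D2 libraries, 0.916 to 0.931 between strains and 0.507 to 0.573 between ODC and OPC of one library. These are correlations across genes, which are not independent replicates.

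Both markers set for the cell types followed the labels. Mog, a myelin surface protein made by mature oligodendrocytes, was at 994, 1018, 1322 and 1405 CPM in ODC and at 7.91, 8.03, 6.33 and 3.44 CPM in OPC. All 4 ODC values lay above all OPC values (log2 fold change 7.48 ± 0.21 SE, adjusted p = 5.44e-11, edgeR). Pdgfra, the growth factor receptor of precursors, was at 7.24, 6.56, 0.821 and 6.27 CPM in ODC and at 1077, 1096, 985 and 1115 CPM in OPC (log2 fold change -7.59 ± 0.23 SE, adjusted p = 6.36e-11, edgeR). Here the order was the opposite, and D2 library 2 had the lowest ODC value. Because the authors clustered and named the nuclei on the same RNA, genes that separate the clusters had to differ. The p-values given here do not measure whether the cell types exist. They set a difference against a variance that edgeR estimates partly from all genes, so a small one does not show that a gene's 4 libraries were alike. A column is a sum over nuclei, so a gene expressed weakly in many nuclei and one expressed strongly in a few cannot be told apart.

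**Figure D1:**
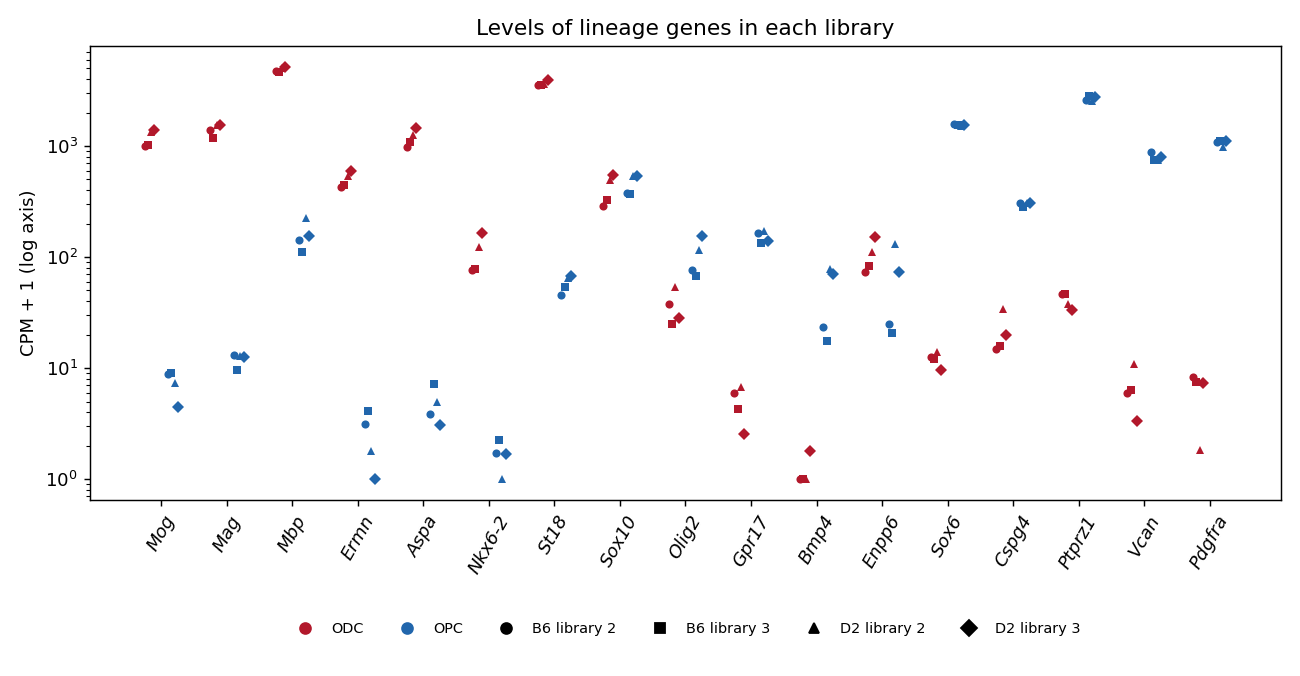
CPM + 1 on a log axis for 17 genes, with ODC in red, OPC in blue and a marker shape for each of the 4 libraries. The groups stand apart for the myelin genes on the left and the precursor genes on the right, while Sox10 and Enpp6 overlap between the cell types.

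Of 11502 symbols counted in both strains and past a filter on low counts, 3116 were higher in ODC (27.1%) and 3244 higher in OPC (28.2%) at an adjusted p under 0.05 in edgeR's paired quasi-likelihood test. At least 4-fold differences were fewer on the ODC side, with 635 symbols (5.52%), than on the OPC side, with 1241 (10.8%). The balance of the smaller calls depended on scaling. With trimmed-mean scaling 49.0% of the calls were higher in ODC, and with no scaling beyond the column total 36.7% were, as the median log2 fold change over all symbols shifted by -0.174 from 0.034 to -0.14. Values of the 4 libraries of ODC did not overlap those of OPC for 46.4% of the symbols tested. These shares are the background for every list below. Of the symbols past 4-fold 14 of 635 had no count in any OPC library and 6 of 1241 none in any ODC library. Next to the 4-fold limit lay Rnf113a2 at a log2 fold change of 2.008 inside it and Tent5a at 1.999 outside it toward ODC, and Fbxo41 at -2.0 inside it and Alcam at -1.998 outside it toward OPC.

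The symbols with the largest differences were mostly not the classical markers. Toward ODC the first was Galnt5, an enzyme that starts mucin-type O-glycosylation, at 188, 218, 257 and 258 CPM in ODC and at 0 counts in every OPC library. Against a floor of 3 counts over the 4 OPC columns it was at least 429-fold higher in ODC. Slc7a15, an amino acid transporter of the SLC7 family, was at 47.9, 49.6, 137 and 123 CPM in ODC and at 0 in OPC, at least 150-fold higher, and both D2 values exceeded both B6 values. Gm12324, a long intergenic RNA, ran the other way between strains at 139, 144, 68.2 and 76.8 CPM in ODC, also with no OPC count, at least 221-fold higher.

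Of these 10 symbols, 7 were listed as noncoding by GENCODE. Gm33255 and 4930420G21Rik overlap on opposite strands of chromosome 16, at 218, 224, 223 and 262 CPM and 374, 383, 457 and 584 CPM in ODC. They had 1 and 3 counts in all OPC columns, a ratio of 1314 (95% counting interval 235 to 51932) and of 826 (95% counting interval 282 to 4006). C030029H02Rik, on chromosome 7, had the highest level of the 10, at 641, 669, 853 and 951 CPM in ODC against 0.719, 1.24, 3.16 and 0 CPM in OPC (log2 fold change 9.21 ± 0.28 SE, adjusted p = 6.36e-11, edgeR). Gm13905, Gm12828 and 5033421B08Rik lie opposite Prr5l, Rnf220 and Slc7a15, and Galnt5 opposite the myelin gene Ermn. The strand setting of the authors' counting was not given in the sources used here, so reads in those overlaps could belong to either gene. The last was Fbxw15, an F-box protein of a family of close copies on chromosome 9 among which reads may be split, at 352, 358, 281 and 226 CPM in ODC with 3 counts in OPC, a ratio of 606 (95% counting interval 207 to 2942).

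Toward OPC the largest difference was for Scel, sciellin, a protein of the cornified envelope of skin, at 105, 117, 75.1 and 94.8 CPM in OPC and at 0 counts in every ODC library, at least 222-fold higher in OPC. The long intergenic RNAs 6330576A10Rik and Gm41231 both lie on chromosome 14, the former at 559, 678, 376 and 407 CPM in OPC against 2.79, 2.05, 0 and 0 CPM in ODC. Stk32a, a serine/threonine kinase, was at 511, 445, 351 and 409 CPM in OPC and at no more than 2.46 CPM in ODC (log2 fold change -8.43 ± 0.25 SE, adjusted p = 6.36e-11, edgeR). Car8, a relative of carbonic anhydrases without their catalytic activity, was at 117, 128, 200.0 and 216 CPM in OPC, higher in D2, with 4 counts in all of ODC. Gucy2f, a retinal guanylate cyclase on the X chromosome, was at 84.8, 59.9, 57.7 and 83.8 CPM in OPC with 1 count in ODC, a ratio of 481 (95% counting interval 85.9 to 19063). Etv4, an ETS factor induced by growth factor signalling, was at 107, 149, 164 and 183 CPM in OPC against 0.557, 0.41, 0 and 1.57 CPM in ODC (log2 fold change -7.77 ± 0.25 SE, adjusted p = 9.77e-11, edgeR). Gm20658, antisense to Vipr2, Has2os, antisense to the hyaluronan synthase gene Has2, and Pdgfra completed the 10.

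The gene lists group 377 genes by role into 17 lists of lineage functions and 4 lists of markers of other cells. Of these genes 304 were tested, 71 fell under the filter on low counts and 2 had counts in 1 strain only. Of the 304, 231 had no overlap between ODC and OPC libraries, against 46.4% of all symbols. The lists include markers of the named cell types and were chosen with earlier results of these data known. A high share was therefore built in and says little of the members.

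**Figure D2:**
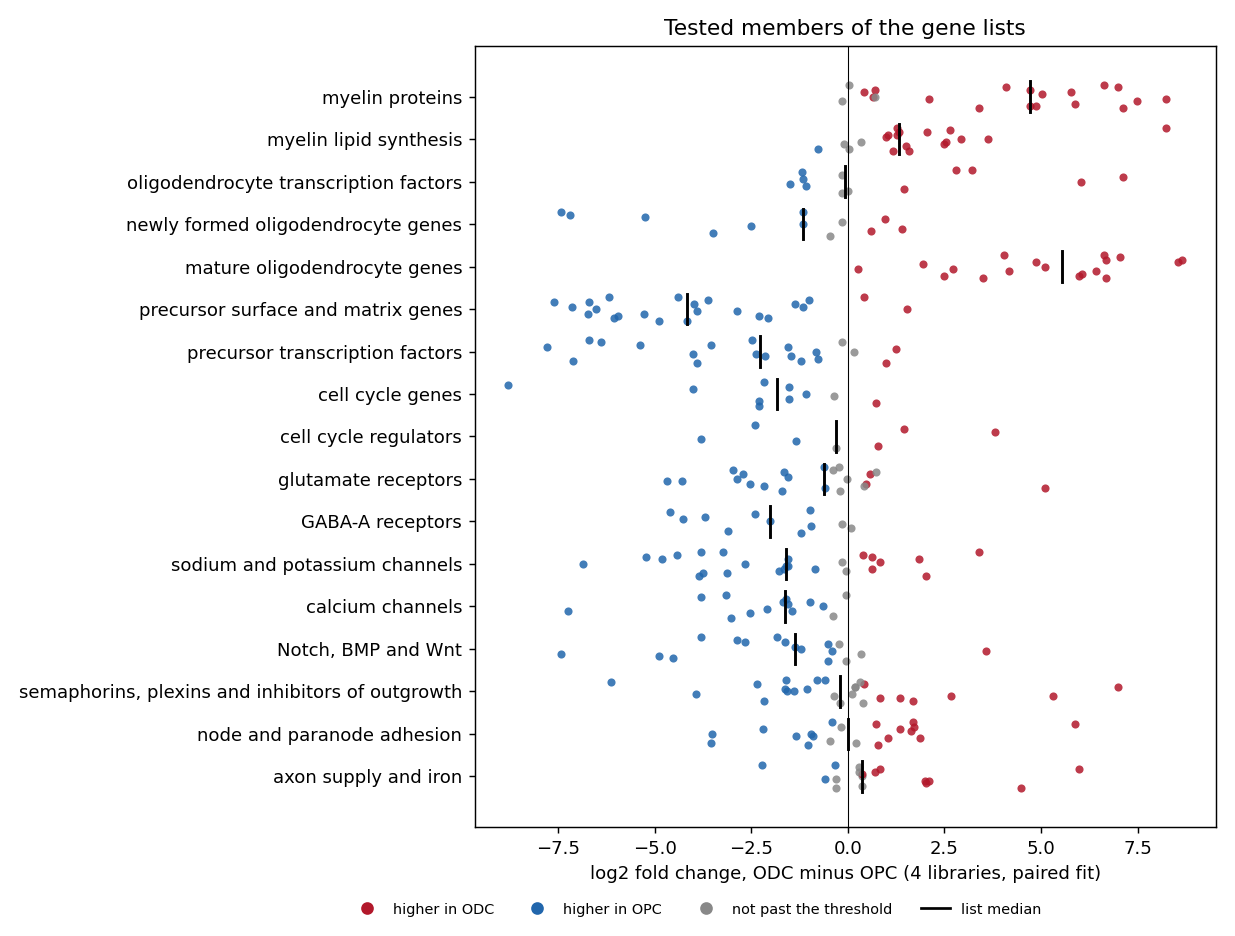
Log2 fold change (ODC minus OPC) of every tested member of the 17 lists of lineage functions, coloured by call, with a bar at each list's median. The medians run from 5.55 for mature oligodendrocyte genes to -4.17 for precursor surface and matrix genes, and the receptor and channel lists lie on the OPC side.

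Of the 20 myelin proteins 17 were higher in ODC, none was higher in OPC and 3 did not pass, with a median log2 fold change of 4.71 against 0.03 over all symbols. Without scaling 16 were higher in ODC and 1 in OPC. Their summed level was 17964 to 20472 CPM in ODC libraries and 1684 to 2373 CPM in OPC libraries. Free RNA in droplets was not measured here, so a low level of an abundant transcript of the other cell type cannot be told apart from it. Mbp, which compacts the cytoplasmic faces of myelin, was at 4745, 4673, 5028 and 5184 CPM in ODC and at 142, 109, 223 and 155 CPM in OPC (log2 fold change 5.01 ± 0.16 SE, adjusted p = 9.1e-11, edgeR). The difference was larger for other members. Mag, an adhesion molecule on the axon-facing membrane, was at 1404, 1189.9, 1536 and 1534 CPM in ODC and 12.2, 8.65, 11.9 and 11.7 CPM in OPC (log2 fold change 6.99 ± 0.14 SE, adjusted p = 1.61e-11, edgeR). Ermn, a cytoskeletal protein of late oligodendrocytes, was at 429, 440.5, 534 and 599 CPM in ODC and 2.16, 3.09, 0.791 and 0 CPM in OPC (log2 fold change 8.23 ± 0.29 SE, adjusted p = 1.5e-10, edgeR), and Opalin, a transmembrane protein of mature cells, had a log2 fold change of 7.13.

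Not all members of the list followed. Bcas1, which marks oligodendrocytes that are starting to myelinate, was at 552, 532, 639.8 and 644 CPM in ODC and 412, 455, 801 and 710.4 CPM in OPC and did not pass (log2 fold change 0.04, adjusted p = 0.797, edgeR). The order of the 2 cell types differed by strain for it, with values of 0.33 in B6 and -0.25 in D2 (difference between strains -0.55 ± 0.14 SE, adjusted p = 0.0126, edgeR). Gjc3, the glial connexin, was called at 0.64, with 629 ± 113 CPM in OPC (SD, n = 4) against 973 ± 63.6 in ODC. Cd9 and Pmp22, both tetraspan membrane proteins, did not pass.

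Genes of lipid synthesis were mostly higher in ODC. Of 19 tested, 15 were higher in ODC and 1, the fatty acid elongase Elovl6, higher in OPC (log2 fold change -0.78 ± 0.12 SE, adjusted p = 1.48e-04, edgeR), with a median log2 fold change of 1.33. Aspa, which frees acetate from N-acetylaspartate, was at 969, 1090.0, 1257 and 1447 CPM in ODC and 2.87, 6.18, 3.95 and 2.06 CPM in OPC (log2 fold change 8.24 ± 0.22 SE, adjusted p = 3.68e-11, edgeR). Ugt8a, which makes galactosylceramide, was at 692, 696, 871 and 957 CPM in ODC and 95.6, 111, 107 and 101 CPM in OPC (log2 fold change 2.94 ± 0.13 SE, adjusted p = 7.92e-10, edgeR), and Fa2h, which hydroxylates the fatty acids of that lipid, had a log2 fold change of 2.64. Differences were smaller for the cholesterol pathway members. Hmgcs1, Idi1, Fdps, Fdft1 and Dhcr7 were higher in ODC by log2 fold changes of 0.99 to 1.59, while Sqle (0.03) and Lss (0.35) did not pass.

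All 18 tested genes of mature oligodendrocytes were higher in ODC, 16 of them at least 4-fold. Dock5, a guanine nucleotide exchange factor, was at 242, 222, 248 and 254 CPM in ODC with 3 counts in OPC, a ratio of 455 (95% counting interval 155 to 2209). Car2, a carbonic anhydrase, and Hapln2, a link protein of the nodal matrix, had log2 fold changes of 6.68 and 7.05. Ptgds, which makes a prostaglandin, was at 1915, 1713, 581 and 893 CPM in ODC and 93.4, 146, 111 and 70.8 CPM in OPC, with both B6 ODC values above both D2 values. Its difference was 3.92 in B6 and 2.99 in D2 on the log2 scale (difference between strains -0.90 ± 0.23 SE, adjusted p = 0.0164, edgeR). By library, log2((ODC CPM + 1)/(OPC CPM + 1)) was 4.34 and 3.54 in B6 and 2.37 and 3.64 in D2. The strains therefore overlapped in this difference, and D2 library 2 was the low one. S100b, a calcium-binding protein shared with astrocytes, was the weakest at 0.26 (adjusted p = 0.0485, edgeR), and lost its call when any library was left out.

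Transcription factors of the lineage split. Of 12, 5 were higher in ODC, 4 higher in OPC and 3 did not pass, shares not far from the background, with a median of -0.07. The larger differences all ran toward ODC. There 4 of the 12 were at least 4-fold higher in ODC, against 5.52% of all symbols, and 0 in OPC, against 10.8%. Myrf was at 177, 125, 153 and 150.4 CPM in ODC and 17.2, 14.2, 19 and 15.1 CPM in OPC (log2 fold change 3.20 ± 0.13 SE, adjusted p = 4.83e-10, edgeR). St18, a zinc finger factor, was at 3562, 3569, 3617 and 3937 CPM in ODC and 44.6, 52.5, 64 and 66 CPM in OPC (log2 fold change 6.02 ± 0.14 SE, adjusted p = 2.4e-11, edgeR). Nkx6-2, a homeobox factor of myelinating cells, was at 75.2, 76.6, 122 and 163 CPM in ODC, with 4 counts in OPC (log2 fold change 7.12 ± 0.29 SE, adjusted p = 4.83e-10, edgeR). Sox10, required in both stages, was at 287, 323, 497 and 544 CPM in ODC and 374, 366, 538 and 539 CPM in OPC and did not pass (log2 fold change -0.16 ± 0.11 SE, adjusted p = 0.215, edgeR), with D2 above B6 in both cell types. Olig2, which specifies the lineage, was higher in OPC, at 75.5, 66.7, 115 and 153 CPM against 36.8, 24.2, 52.6 and 27.4 CPM in ODC (log2 fold change -1.5 ± 0.19 SE, adjusted p = 2.32e-05, edgeR), as were Nkx2-2 (-1.07), Tcf7l2 (-1.18) and Zfp488 (-1.17). Without scaling 5 members were higher in OPC.

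Genes of the newly formed stage were found mostly in the OPC columns. Of 12 tested, 7 were higher in OPC and 3 in ODC (median -1.17). Gpr17, an orphan receptor that holds back maturation, was at 162, 132, 169 and 139 CPM in OPC and 5.01, 3.28, 5.75 and 1.57 CPM in ODC (log2 fold change -5.24 ± 0.18 SE, adjusted p = 1.5e-10, edgeR). Neu4, a sialidase, was at 176, 133, 255 and 225 CPM in OPC and 1.67, 0.41, 0.821 and 2.35 CPM in ODC (log2 fold change -7.18 ± 0.22 SE, adjusted p = 6.37e-11, edgeR). Bmp4, a secreted factor, was at 22.3, 16.7, 77.5 and 68.7 CPM in OPC with 1 count in ODC, a ratio of 301 (95% counting interval 53.5 to 11919.8). Its D2 values were above both B6 values. Enpp6, a choline phosphodiesterase of newly formed cells, was called toward ODC while its libraries overlapped, at 73, 81.5, 110.1 and 152 CPM in ODC and 23.7, 19.8, 131 and 72.8 CPM in OPC. The OPC values of D2 were the high ones, and the difference was 1.86 in B6 and 0.37 in D2 (difference between strains -1.45 ± 0.30 SE, adjusted p = 0.00172, edgeR). Rras2 and Cnksr3 were the other members higher in ODC. The share of nuclei at each stage within a column was not measured. Its part in the differences between cell types or strains was not tested.

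Of 23 surface and matrix genes of precursors, 21 were higher in OPC, 18 of them at least 4-fold, and 2 higher in ODC (median -4.17). Cspg4 was at 307, 282, 305 and 304 CPM in OPC and 13.9, 14.8, 32.9 and 18.8 CPM in ODC (log2 fold change -3.97 ± 0.18 SE, adjusted p = 1.16e-09, edgeR). Ptprz1, a receptor phosphatase that is also shed as the proteoglycan phosphacan, was at 2607, 2841, 2536 and 2761 CPM in OPC and 45.7, 45.1, 37 and 32.1 CPM in ODC (log2 fold change -6.06 ± 0.14 SE, adjusted p = 2.4e-11, edgeR). The lecticans Vcan (-7.14), Bcan (-4.39) and Ncan (-2.88) and the tenascins Tnr (-5.94) and Tnc (-3.62), which build the extracellular matrix, were all higher in OPC. Both members higher in ODC were growth factor receptors. Fgfr2 was at 3046, 2495, 2496 and 2170.0 CPM in ODC and 1174, 935, 765 and 715 CPM in OPC (log2 fold change 1.52 ± 0.11 SE, adjusted p = 6.68e-08, edgeR), whereas Fgfr1 (-2.07) and Fgfr3 (-1.01) were higher in OPC, and Igf1r had a log2 fold change of 0.41, no longer called without scaling.

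Of 20 transcription factors of precursors, 16 were higher in OPC and 2, Sox2 (0.98) and Nfix (1.25), higher in ODC (median -2.26). Sox6, which with Sox5 keeps precursors from maturing, was at 1579, 1528, 1522 and 1554 CPM in OPC and 11.7, 11.1, 13.1 and 8.62 CPM in ODC (log2 fold change -7.11 ± 0.15 SE, adjusted p = 1.61e-11, edgeR). Zeb1, a repressor of epithelial genes, was at 1665, 1612, 1469 and 1592 CPM in OPC and 31.8, 25, 10.7 and 7.05 CPM in ODC, lower in the ODC of D2 (difference between strains -1.56 ± 0.30 SE, adjusted p = 8e-04, edgeR). Its relative Zeb2, on the list of oligodendrocyte factors, was higher in ODC (log2 fold change 1.45 ± 0.10 SE, adjusted p = 8.09e-08, edgeR). The Notch target Hes5 was at 103, 126, 93.3 and 144 CPM in OPC and 7.8, 9.42, 14 and 9.4 CPM in ODC (log2 fold change -3.55 ± 0.18 SE, adjusted p = 3.02e-09, edgeR).

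Proliferation genes were near the limit of detection. Of 28 genes of the cell cycle 18 fell under the filter, and of the 10 that passed 8 were higher in OPC and 1, Pcna, higher in ODC (without scaling 9 and 0). A gene measured only because it is high in one group had to differ, so this count says little of the list. Top2a, which untangles DNA before division, was at 27.3, 37.7, 29.3 and 47.4 CPM in OPC and at 0 counts in every ODC library, at least 80-fold higher in OPC. Mki67, the Ki-67 antigen of dividing cells, was at 7.91, 10.5, 15.8 and 16.5 CPM in OPC and 1.11, 4.51, 5.75 and 6.27 CPM in ODC (log2 fold change -1.51 ± 0.31 SE, adjusted p = 0.0011, edgeR). Among regulators the D cyclins parted, with Ccnd1 at 39.5, 58.1, 61.7 and 82.4 CPM in OPC against 6.13, 9.42, 19.7 and 11.8 CPM in ODC (log2 fold change -2.41 ± 0.20 SE, adjusted p = 3.33e-07, edgeR), Ccnd2 at a log2 fold change of -1.33, and Ccnd3 in the other direction, at 94.7, 63.1, 185 and 159.8 CPM in ODC and 5.03, 8.65, 10.3 and 10.3 CPM in OPC (log2 fold change 3.80 ± 0.19 SE, adjusted p = 3.35e-09, edgeR). Cdkn1b, an inhibitor of the cell cycle, was higher in ODC (log2 fold change 1.45 ± 0.20 SE, adjusted p = 3.81e-05, edgeR), Rb1 was too (0.79), and Cdk6 was higher in OPC (-3.79).

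Receptors and channels lay mainly on the OPC side. Of 21 glutamate receptor genes 12 were higher in OPC and 3 in ODC, of 11 GABA-A subunits 9 and 0, of 14 calcium channel genes 12 and 0, and of 25 sodium and potassium channel genes 16 and 7. The AMPA subunit Gria2 was at 1684, 1752, 1860.5 and 1562 CPM in OPC and 357, 379, 297 and 190.4 CPM in ODC (log2 fold change -2.52 ± 0.15 SE, adjusted p = 1.06e-08, edgeR), and the NMDA subunit Grin3a was at 527, 600.4, 375 and 423 CPM in OPC and 17.3, 25.8, 26.3 and 29.8 CPM in ODC (log2 fold change -4.30 ± 0.18 SE, adjusted p = 5.93e-10, edgeR). Among metabotropic receptors Grm5 was higher in OPC (log2 fold change -2.88 ± 0.16 SE, adjusted p = 9.19e-09, edgeR) and Grm3 in ODC, at 1374, 1435, 1259.9 and 1257 CPM against 46, 55.6, 30 and 25.4 CPM in OPC (log2 fold change 5.11 ± 0.17 SE, adjusted p = 9.77e-11, edgeR). Cacng4, an auxiliary subunit of AMPA receptors and calcium channels, was at 341, 330.5, 366 and 376 CPM in OPC and 4.46, 2.05, 1.64 and 0 CPM in ODC (log2 fold change -7.25 ± 0.27 SE, adjusted p = 2.04e-10, edgeR). Kcnd2, an A-type potassium channel, was at 3927, 3543, 3273 and 3399 CPM in OPC and 141, 159, 58.3 and 48.6 CPM in ODC (log2 fold change -5.23 ± 0.25 SE, adjusted p = 1.93e-09, edgeR), and its ODC values were lower in D2 (difference between strains -1.33 ± 0.17 SE, adjusted p = 2.69e-07, edgeR). The delayed rectifiers Kcna1 (3.40) and Kcna6 (1.85) and the inward rectifier Kcnj10 (0.84) were higher in ODC.

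Markers of other cells gave measurable levels in both cell types. The summed level of 10 neuron markers was 664 to 985 CPM in ODC and 1129 to 1370.1 CPM in OPC, and 8 were tested, of which 4 were higher in ODC (Rbfox3, Slc17a7, Camk2a and Prox1) and 3 in OPC (Snap25, Gad1 and Map2). Without scaling these were 3 and 3. The 10 astrocyte markers summed to 331 to 409 CPM in ODC and 625 to 733 CPM in OPC, with 1 higher in ODC and 4 in OPC of 5 tested. The 10 microglia markers summed to 163 to 254 and 245 to 323 CPM, with 1 higher in each direction of 5 tested, and the 10 vascular markers to 38.4 to 55.7 and 14.4 to 45.9 CPM, with none called of 1 tested. No marker was at 0 in all libraries of either cell type. The sums of neuron and astrocyte markers were higher in OPC, as were receptors and channels, and their part in those differences was not tested.

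For genes of signalling and guidance the lists were mixed. Of 17 members of the Notch, BMP and Wnt pathways 13 were higher in OPC and 1 in ODC (median -1.38). The receptor Notch1 was at 59.6, 66.1, 64.8 and 75.6 CPM in OPC and 4.46, 6.15, 2.46 and 4.7 CPM in ODC (log2 fold change -3.79 ± 0.20 SE, adjusted p = 4.91e-09, edgeR), and its ligands Dll1 (-2.67), Dll3 (-4.53) and Jag1 (-2.88) were higher in OPC too. The member higher in ODC was Smad7, an inhibitor of TGF-beta and BMP signalling, at 494, 357, 631 and 669.8 CPM in ODC and 35.2, 30.3, 62.5 and 53.6 CPM in OPC (log2 fold change 3.58 ± 0.13 SE, adjusted p = 1.53e-10, edgeR). Of 25 semaphorins, plexins and inhibitors of outgrowth 7 were higher in ODC and 11 in OPC. Rtn4, which encodes the outgrowth inhibitor Nogo, was at 1236, 1503, 1476 and 1575 CPM in ODC and 201, 196, 285 and 245 CPM in OPC (log2 fold change 2.66 ± 0.12 SE, adjusted p = 1.28e-09, edgeR), and the netrin receptor Unc5b was at 104, 71.7, 96.1 and 103 CPM in ODC and 2.87, 1.85, 2.37 and 2.06 CPM in OPC (log2 fold change 5.30 ± 0.20 SE, adjusted p = 2.66e-10, edgeR). Sema5b (-6.12) and Sema3d (-3.93) were higher in OPC.

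Of 20 genes of node and paranode adhesion 9 were higher in ODC and 8 in OPC (median 0.01, and -0.16 without scaling). Cntn2, which clusters potassium channels beside the paranode, was at 336, 318, 270.2 and 306 CPM in ODC and 8.62, 4.94, 3.16 and 4.12 CPM in OPC (log2 fold change 5.87 ± 0.18 SE, adjusted p = 6.37e-11, edgeR), while its relative Cntn1 was at 1145, 1051, 1184 and 1162 CPM in OPC and 113, 157, 115 and 35.3 CPM in ODC (log2 fold change -3.52 ± 0.27 SE, adjusted p = 1.62e-07, edgeR). Nfasc, whose glial isoform anchors the paranode, was higher in ODC (log2 fold change 1.72 ± 0.22 SE, adjusted p = 2.43e-05, edgeR), by 2.38 in B6 and 1.05 in D2 (difference between strains -1.29 ± 0.15 SE, adjusted p = 1.04e-07, edgeR). Of 17 genes of axon supply and iron handling 8 were higher in ODC and 3 in OPC. Trf, transferrin, which carries iron, was at 1131, 1149, 1367 and 1752 CPM in ODC and 28.7, 24.7, 14.2 and 15.8 CPM in OPC (log2 fold change 5.98 ± 0.23 SE, adjusted p = 2.75e-10, edgeR). The lactate transporter Slc16a1 was at 13.9, 22.5, 28.7 and 41.5 CPM in ODC and 7.91, 4.94, 7.91 and 4.81 CPM in OPC (log2 fold change 2.03 ± 0.30 SE, adjusted p = 8.82e-05, edgeR), and the ferritin heavy chain Fth1 had a log2 fold change of 1.99. Cp, ceruloplasmin, was higher in OPC (-2.22).

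The symbols at least 4-fold higher in OPC had longer spans than all symbols tested. Of those with a single GENCODE vM21 entry the median span was 80075 bases in the OPC set (n = 1222), 38018 in the ODC set (n = 622) and 29630 in all symbols tested (n = 11379), and spans of at least 100000 bases made up 45%, 23.3% and 18%. Protein-coding genes made up 80.9% of the OPC set, 84.2% of the ODC set and 89.8% of all symbols. These are descriptions with no test. The authors kept intronic reads, and the part of gene length in the differences was not tested.

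**Figure D3:**
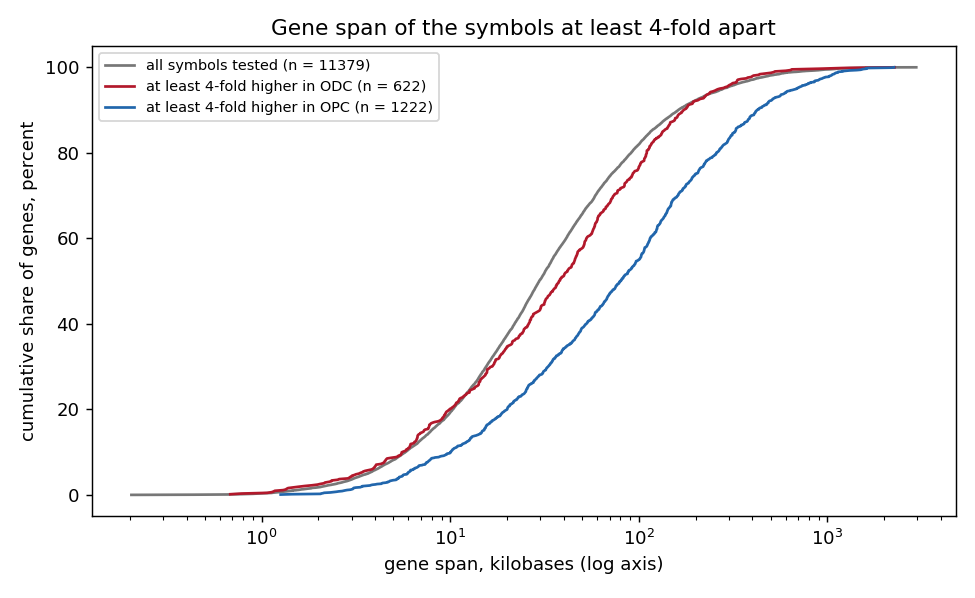
Cumulative share of genes (percent) by gene span in kilobases on a log axis, for all symbols tested and the 2 sets at least 4-fold apart. The OPC curve lies to the right of the other curves over most of its course, with a median span of 80075 bases.

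The difference between ODC and OPC was itself not the same in both strains for 415 symbols (3.61%), 178 larger in D2 and 237 smaller on the signed ODC minus OPC scale. This count was 56 with DESeq2, 276 without B6 library 3 and 207 without D2 library 3. Fitted in each strain alone, 34 of 411 were called in opposite directions in B6 and D2, and 256 in the same direction. The 5 symbols with the largest fitted difference in each direction follow, and not all kept the call. Plaat3, Gm15581, 6330411D24Rik and Gm13187 lost it with DESeq2. Gm38642 lost it without B6 library 2, D2 library 2 or D2 library 3, 6330411D24Rik without B6 library 2 or D2 library 2, Gm15581 without D2 library 2, and Plaat3 and Plekhh2 without D2 library 3. Toward D2, Fcho1, an endocytosis adaptor, was at 6.68, 2.87, 171 and 188 CPM in ODC and 9.34, 14.8, 12.7 and 14.4 CPM in OPC, with ODC above OPC in both D2 libraries and below it in both B6 libraries (difference between strains 5.15 ± 0.49 SE, adjusted p = 4.7e-10, edgeR). Arhgap26, a GTPase activating protein, was at 14.5, 21.3, 67.4 and 79.1 CPM in ODC and 96.3, 84, 30.8 and 20.6 CPM in OPC (difference between strains 3.81 ± 0.30 SE, adjusted p = 2.58e-12, edgeR), with OPC higher in B6 and ODC higher in D2. Plaat3, a phospholipase, was at 22.3, 9.27, 1.58 and 0 CPM in OPC and 190.0, 151, 106 and 126 CPM in ODC (3.70 ± 0.73 SE, adjusted p = 9.5e-04, edgeR), with 2 OPC counts in D2. Gm38642, for which no single annotation entry was found, was at 11.1, 11.9, 136 and 132 CPM in ODC and 1.44, 0.618, 0 and 0 CPM in OPC. It had no OPC count in D2, where ODC was at least 122-fold higher against a floor of 3 counts over both libraries, and 3 OPC counts in B6, a ratio of 11.6 (95% counting interval 3.75 to 58.2), so the size of the difference between strains is not given. The antisense Gm15581 (3.33) completed the 5.

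Toward B6, Plekhh2, which has a pleckstrin homology domain, was at 106, 120.1, 3.29 and 0 CPM in ODC and 10.1, 14.8, 3.95 and 2.06 CPM in OPC (difference between strains -4.05 ± 0.92 SE, adjusted p = 0.00452, edgeR). In D2 it had 4 and 0 counts in ODC and 5 and 3 in OPC, so the size of this difference rests on few counts. B430010I23Rik, antisense to Mtus1, was at 2.87, 0.618, 39.5 and 39.2 CPM in OPC and 252, 250, 329 and 316 CPM in ODC (-4.14 ± 0.45 SE, adjusted p = 1.2e-08, edgeR). Gm13187 lies opposite Frmd4a, and both showed the difference. Gm13187 was at 21.7, 78.3, 40.2 and 0.783 CPM in ODC, where libraries of one strain differed widely, and at 25.2, 24.7, 145 and 92.8 CPM in OPC (-3.63 ± 0.44 SE, adjusted p = 1.35e-07, edgeR). Frmd4a, a scaffold protein on the list of newly formed cells, was at 197, 348, 362 and 153 CPM in ODC and 127, 189.6, 945 and 552 CPM in OPC (-2.36 ± 0.17 SE, adjusted p = 6.93e-14, edgeR). The differences of 6330411D24Rik, with 1 ODC count in D2, and Gm31224 were -3.80 and -3.58. Of the 304 tested list members 37 were among the 415, 12.2% against 3.61% of all symbols, for lists chosen with results of these data known. Calls between strains were checked gene by gene under the alternatives only for the symbols with the largest differences, not for list members. Reads of D2 were mapped to a genome with D2 bases placed at known variants. The study's methods name a GENCODE annotation and do not say whether the gene list was the same for both strains. In the ODC and OPC columns 5801 symbols had counts in D2 only and 1976 in B6 only, and these were left out. No single GENCODE vM21 entry was found for Arhgap26, Plaat3 or Gm38642. What the genomes and any difference in gene lists contribute to strain differences was not tested.

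**Figure D4:**
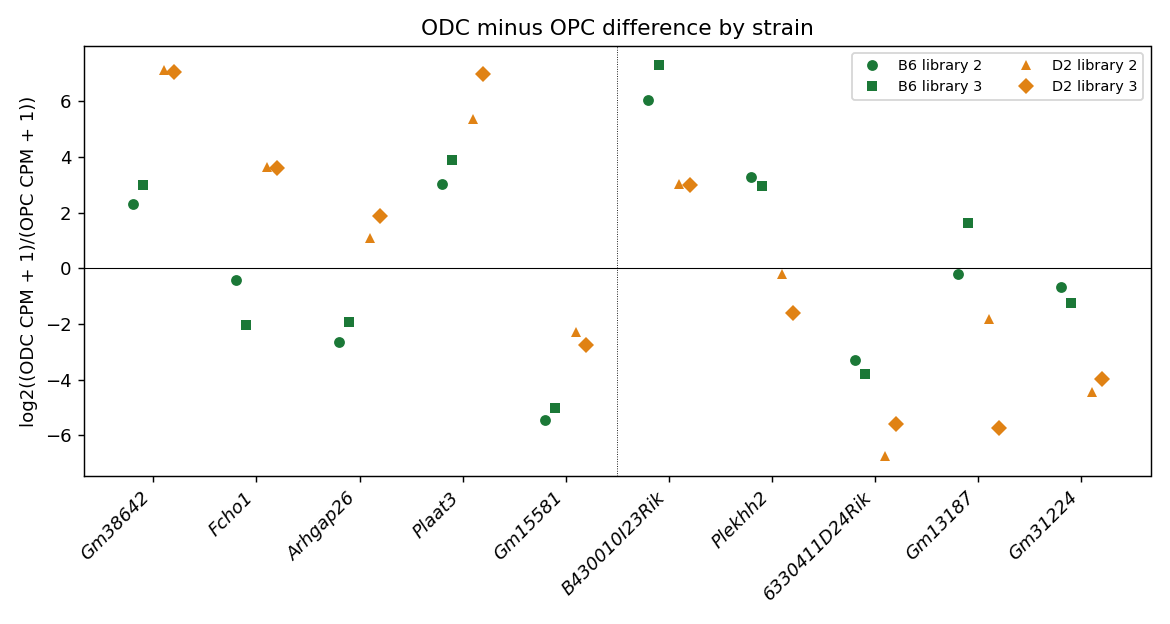
ODC minus OPC difference on a log2 scale, log2((ODC CPM + 1)/(OPC CPM + 1)), in each of the 4 libraries for the 10 symbols with the largest differences between strains. For the 5 on the left D2 values lie above B6 values, and for the 5 on the right below them.

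Promoter accessibility was measured in far fewer nuclei, 26 to 41 ODC and 14 to 32 OPC per library, with 311068 to 408524 and 278059 to 418650 counts per column. In total these were 136 ODC and 97 OPC nuclei, although accessibility nuclei had not been sorted for neurons. How well they represent each cell type was not tested. Peaks centred within 1000 bases of a gene start held 44.4 to 49.2% of the ODC counts and 38.8 to 41.7% of the OPC counts, so the test, scaled on these peaks, compares promoters with each other. The authors had placed the nuclei by matching accessibility over gene bodies and upstream sequence to the RNA of the named cell types, so accessibility was not independent of RNA. Of 8732 genes tested 143 were more accessible in ODC (1.64%) and 310 in OPC (3.55%). These counts were 16 and 60 with DESeq2, and 95 toward ODC without B6 library 3 or without D2 library 2.

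Most genes called in both assays had the same direction in each. Of 635 symbols at least 4-fold higher in ODC 281 were tested at the promoter, of which 60 were called toward ODC and 0 toward OPC (median 0.45). Of 1241 at least 4-fold higher in OPC 333 were tested, with 133 called toward OPC and 1, E230016M11Rik, toward ODC (median -0.84, against 0.02 over the 6461 symbols with both values). Over those 6461, 280 were called in both assays, 268 in the same direction and 12 in opposite directions. Among list members Mag had the largest difference toward ODC, with 17, 19, 10 and 12 counts in the ODC columns and 0, 0, 1 and 0 in the OPC columns (log2 fold change 4.91 ± 0.81 SE, adjusted p = 6.06e-07, edgeR). Trf had 30, 42, 24 and 39 counts in ODC and 3, 3, 2 and 1 in OPC (log2 fold change 3.45 ± 0.36 SE, adjusted p = 1.03e-17, edgeR), and Cldn11, a tight junction protein of myelin, 21, 17, 13 and 13 and 1, 1, 2 and 1 (log2 fold change 3.16 ± 0.56 SE, adjusted p = 4.19e-06, edgeR). Toward OPC Ptprz1 had 11, 12, 14 and 19 counts in OPC and 1, 2, 3 and 4 in ODC (log2 fold change -2.78 ± 0.49 SE, adjusted p = 2.32e-06, edgeR). Hes5 had 9, 17, 27 and 26 and 11, 5, 1 and 1 (log2 fold change -2.49 ± 0.36 SE, adjusted p = 3.67e-09, edgeR). At its promoter the groups lay closest in B6 library 2, at 64.1 CPM in ODC and 84.9 CPM in OPC after scaling.

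**Figure D5:**
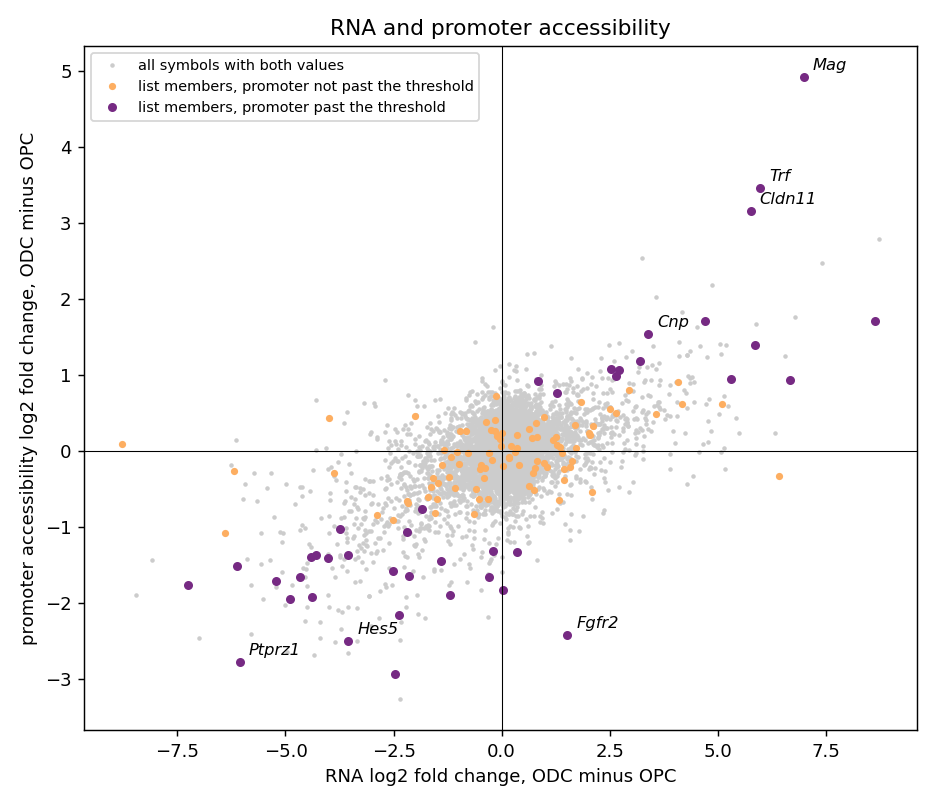
RNA log2 fold change (horizontal) against promoter accessibility log2 fold change (vertical), ODC minus OPC, for the 6461 symbols with both values, with list members in colour. Mag, Trf and Cldn11 lie at the upper right, Ptprz1 and Hes5 at the lower left, and Fgfr2 at the lower right.

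Fgfr2 stood apart, higher in ODC by RNA and in OPC by accessibility, with 4, 3, 9 and 4 counts in ODC and 16, 20, 31 and 16 in OPC (log2 fold change -2.42 ± 0.34 SE, adjusted p = 1.77e-09, edgeR). Its annotated start lies 2.86 megabases from the nearest RefSeq start, at the end of an entry of 2960900 bases that spans 36 other genes of its strand, so this window is far from the RefSeq start. The GENCODE release behind the RNA counts was not given, so whether RNA reads were counted over this entry is not known. Of the 41 promoter calls among list members 13 were also called with DESeq2, and those of Hes5 and Bcan were not. Myrf (1.18) and Car2 (0.94) were called toward ODC, and both lost the call without D2 library 2 and without D2 library 3, Myrf also without B6 library 2.

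The promoters below are shown because RNA was at least 4-fold apart and accessibility was called in the same direction, and they are the 3 list members with the largest promoter difference in each direction that had a RefSeq promoter within 500 bases of the annotated start. Each runs 5′ to 3′ on the gene's strand from 250 bases before to 50 after the RefSeq start (GRCm38.p6), in lower case, with matches to the searched motifs in capitals. The positions are Mag chr7:30914814-30915113 (-), Cldn11 chr3:31149670-31149969 (+) and Cnp chr11:100574689-100574988 (+) toward ODC, and Ptprz1 chr6:22875252-22875551 (+), Hes5 chr4:154960673-154960972 (+) and Bcan chr3:88000307-88000606 (-) toward OPC.
Mag: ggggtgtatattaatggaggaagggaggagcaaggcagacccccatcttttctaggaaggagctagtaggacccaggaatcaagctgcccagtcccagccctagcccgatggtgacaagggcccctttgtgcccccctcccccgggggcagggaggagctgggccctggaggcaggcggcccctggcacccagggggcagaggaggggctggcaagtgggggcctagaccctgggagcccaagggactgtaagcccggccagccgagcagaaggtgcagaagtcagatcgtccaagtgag
Cldn11: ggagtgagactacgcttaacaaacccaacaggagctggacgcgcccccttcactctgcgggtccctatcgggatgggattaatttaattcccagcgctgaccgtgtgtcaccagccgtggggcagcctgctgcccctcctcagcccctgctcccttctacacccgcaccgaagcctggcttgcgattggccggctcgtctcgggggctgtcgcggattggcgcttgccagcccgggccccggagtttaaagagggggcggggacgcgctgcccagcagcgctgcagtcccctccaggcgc
Cnp: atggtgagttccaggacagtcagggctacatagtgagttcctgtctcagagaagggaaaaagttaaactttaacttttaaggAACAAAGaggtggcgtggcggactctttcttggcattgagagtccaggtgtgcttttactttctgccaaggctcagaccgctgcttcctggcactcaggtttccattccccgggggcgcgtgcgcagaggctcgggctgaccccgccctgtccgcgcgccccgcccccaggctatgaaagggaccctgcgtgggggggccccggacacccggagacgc
Ptprz1: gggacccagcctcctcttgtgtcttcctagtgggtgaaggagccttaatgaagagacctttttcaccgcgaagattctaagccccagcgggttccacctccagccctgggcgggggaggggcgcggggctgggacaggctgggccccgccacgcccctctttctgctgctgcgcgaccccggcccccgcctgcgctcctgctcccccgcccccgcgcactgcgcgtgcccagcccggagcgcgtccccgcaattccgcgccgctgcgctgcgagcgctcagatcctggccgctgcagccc
Hes5: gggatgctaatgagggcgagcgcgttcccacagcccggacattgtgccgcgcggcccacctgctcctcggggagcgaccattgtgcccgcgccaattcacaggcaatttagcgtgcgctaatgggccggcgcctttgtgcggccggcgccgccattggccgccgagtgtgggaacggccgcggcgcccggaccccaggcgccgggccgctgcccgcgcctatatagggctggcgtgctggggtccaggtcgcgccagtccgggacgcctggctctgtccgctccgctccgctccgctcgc
Bcan: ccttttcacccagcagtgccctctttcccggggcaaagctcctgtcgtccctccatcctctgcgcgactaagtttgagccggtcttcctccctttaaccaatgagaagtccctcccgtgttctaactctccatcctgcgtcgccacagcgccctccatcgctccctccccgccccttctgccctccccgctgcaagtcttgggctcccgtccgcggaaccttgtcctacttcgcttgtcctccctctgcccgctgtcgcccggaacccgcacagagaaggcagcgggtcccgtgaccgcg

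The peak at Mag runs from 30914781 to 30915012 on chromosome 7 and that at Ptprz1 from 22874169 to 22876534 on chromosome 6, by the coordinates of the deposited peaks, so both overlap the sequence shown. The 6 sequences differ in base composition. Those toward ODC held 65% G and C with 6 CpG (Mag), 66.3% with 24 (Cldn11) and 59.7% with 17 (Cnp), and those toward OPC 71.7% with 29 (Ptprz1), 72.7% with 41 (Hes5) and 64% with 24 (Bcan). Of all promoters matched, 14.8% of the ODC set (n = 378), 9.3% of the OPC set (n = 710) and 5.34% of all symbols tested (n = 7616) held fewer than 5 CpG, and the median ratio of observed to expected CpG was 0.703, 0.665 and 0.792.

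Motifs bound by factors of the lineage were searched on both strands, namely the SOX motifs AACAATG and AACAAAG and the E-boxes CAGCTG and CATATG. The only match in the 6 sequences was AACAAAG in Cnp, the gene of a myelin phosphodiesterase. AACAATG was held by 3.44% of the ODC set, 2.25% of the OPC set and 1.92% of all symbols tested, and AACAAAG by 2.65%, 3.66% and 3.47%. CAGCTG was held by 19.0% of each set and 14.3% of all, and CATATG by 1.59%, 1.69% and 1.47%. A match is a string of letters and not a bound site, and its absence from this window says nothing of the factor.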

How the data were processed

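The deposited tables held raw counts summed over the nuclei of each cell type in each library, for RNA per gene symbol and for accessibility per peak, and the authors also deposited the number of nuclei behind each column. By the study's methods and the submitters' processing notes, RNA reads were mapped with Cell Ranger 6.0.2 with introns kept, and accessibility reads with Cell Ranger ATAC 2.0.0, to mm10 for B6 and to mm10 with strain bases swapped in for D2. The strand setting and the GENCODE release were not given in the sources used here. Cell types were clustered by the authors in Seurat on RNA of all samples together and named by conserved markers and a reference atlas, after doublets were removed with DoubletFinder. No further filter on doublets could be applied to summed counts. They were transferred to accessibility through gene activity, and peaks called per sample were merged. Samples were grouped by strain from the labels, which number the libraries 1 and 2 where the tables number them 2 and 3.

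Counts of symbols seen in both strains (19812 of 33902) were tested with edgeR 4.0.16 in R 4.3.3, by quasi-likelihood with trimmed-mean scaling, filterByExpr and library as block, with Benjamini-Hochberg adjustment over 11502 symbols. The block was used because both cell types came from the same library. The correlation of deviations from the cell type means within a library was 0.36 to 0.43, and 0.05 to 0.07 after removing strain. An interaction term tested strains against each other. The SE given with a log2 fold change is its absolute value divided by the square root of the quasi-likelihood F statistic. It is not a spread between libraries. An exact permutation test over 4 pairs cannot go below a two-sided p of 0.125, so none is given. Peaks with a centre within 1000 bases of a GENCODE vM21 gene start were summed per gene and tested likewise. Scripts were tested on simulated data. Ratios against 1 to 3 counts carry a 95% exact binomial interval, and ratios against 0 use a floor of 3 counts over the group, both covering counting error only. A column held 1224903 to 2581231 RNA counts and 278059 to 418650 accessibility counts.

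Named genes were the 10 largest differences in each direction at a mean of at least 20 CPM with all 4 libraries in the same direction, the 5 largest differences between strains in each direction, and members of the gene lists. The comparison and the lists were chosen with earlier results of these data known. E230016M11Rik and the symbols next to the 4-fold limit were named after their values were seen. Alternatives were DESeq2 1.42.0, limma 3.58.1 (voom), other scalings, filters and windows, no block, single strains and leaving out each library. Columns of other cell types, 60 for RNA and 52 for accessibility, were not used here. Some list members are not reported here by name.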

Additional observations from a re-analysis of the deposited data

Results flagged for a closer look

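The ODC minus OPC difference was tested between strains, and 415 symbols passed at an adjusted p under 0.05 in edgeR. The log2 differences, D2 minus B6, of the symbols with the largest fitted ones were Fcho1 (5.15), Arhgap26 (3.81), Plaat3 (3.70), Gm15581 (3.33), B430010I23Rik (-4.14), Plekhh2 (-4.05), 6330411D24Rik (-3.80), Gm13187 (-3.63) and Gm31224 (-3.58). The sizes for Plaat3, Plekhh2 and 6330411D24Rik rest on few counts in D2. Gm38642 had no OPC count in D2, where ODC was at least 122-fold higher against a floor of 3 counts over both libraries, and no size of its difference between strains is given. Among list members named in the report the log2 differences were Pmp22 (1.63), Bcas1 (-0.55), Zfp488 (-1.28), Enpp6 (-1.45), Frmd4a (-2.36), Ptgds (-0.90), Trf (1.28), Tnr (-0.96), Zeb1 (-1.56), Gria2 (-0.61), Grm5 (-0.72), Kcnd2 (-1.33), Nfasc (-1.29), Cntn1 (-1.0) and Fth1 (0.60). For Cntn1, log2((ODC CPM + 1)/(OPC CPM + 1)) was -3.33 and -2.74 in B6 and -3.35 and -5.0 in D2. Its D2 library 2 thus lay close to B6 library 2, and D2 library 3 stood apart. For Ptgds the library values of the strains overlapped. Calls of list members were not checked with a library left out.

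In 6 of 132 genes tested 1 library lay apart from the other 3 by Dixon's test on its log2((ODC CPM + 1)/(OPC CPM + 1)), which chance gives in about 1 of 20 groups. These were Pdgfra with -9.08 in D2 library 2 against -7.26 to -7.03 in the other libraries, Nkx2-2 with -1.89 in B6 library 2 against -0.94 to -0.77 in the other libraries, S100b with 0.45 in D2 library 2 against 0.19 to 0.21 in the other libraries, Fgfr1 with -1.71 in D2 library 2 against -2.07 to -2.06 in the other libraries, Ccnd3 with 2.73 in B6 library 3 against 3.83 to 4.04 in the other libraries and Dll3 with -4.29 in D2 library 3 against -2.99 to -2.73 in the other libraries.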

How the results depend on the processing

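The RNA counts of 3116 and 3244 moved by less than 1.5 times under every alternative run on both strains, and the difference between strains and the promoter counts did not. With no replicate block the paired RNA counts were 3212 and 3303, those at least 4-fold 637 and 1239, the difference between strains 324, and the promoter counts 136 and 313. Dropping 1 library at a time gave 2699 to 2871 and 2963 to 3168 RNA calls, 639 to 671 and 1266 to 1296 at least 4-fold, 207 to 339 for the difference between strains, and 95 to 124 and 212 to 265 for promoters. The low values were those without D2 library 3 (207) and B6 library 3 (276) for strains, and without B6 library 3 or D2 library 2 (95) for promoters toward ODC. With DESeq2 the difference between strains was called for 56 symbols and promoters for 16 and 60. Promoter calls were 360 and 587 with no filter beyond 1 count, and 89 and 180 within 500 bases. Fitted in B6 alone, Fcho1 reversed to -1.41. In D2 alone Slc16a7 lost its call at -0.00412. Of the remaining values of single genes for RNA, 4464 kept direction and side of the threshold, 112 lost the call and 63 gained one. For promoters 310 kept it and 82 lost it, for strains 76 and 12, the latter only over the 10 symbols with the largest differences between strains. The cause was not tested. Promoter calls rest on 14 to 41 nuclei per column, which limits their precision.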
